A study of Danio rerio with 10 samples.

Results

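The genes described are 10 members of the Bmp system of the early zebrafish embryo: the ligand genes *bmp2a*, *bmp2b*, *bmp4* and *bmp7a*, the antagonist genes *chrd*, *szl* and *bambia*, and the ventral homeobox genes *vox*, *vent* and *ved*. They were taken by symbol through their RefSeq accessions. Each had 1 record, so all 10 were found among 14720 transcript records. The libraries hold sorted cells of wild-type AB embryos, and the spt_cMO group (5 libraries) had received caged fluorescein-dextran together with a caged morpholino against *spadetail* (*tbx16*, a T-box factor of mesoderm progenitors). The control group (5 libraries) had received the caged tracer alone, with no morpholino, so loss of *tbx16* and other effects of a morpholino cannot be told apart. In both groups ultraviolet light of 360 nm was aimed at the ventral somite progenitors through a 100 µm diaphragm at 6 hours post-fertilization, and the fluorescent cells were sorted at 9 hours, in late gastrulation. The number of embryos behind a library is not given in the sources used here. RNA was counted by CEL-seq, a method that reads 1 tag near the 3′ end of a transcript.

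Bmp proteins are secreted growth factors of the TGF-β family. Dimers bind type I and type II receptor kinases, which phosphorylate Smad proteins that enter the nucleus with a shared partner Smad. In the gastrula, Bmp activity is highest ventrally and low dorsally, where Chordin binds the ligands and keeps them from their receptors, and this gradient patterns ectoderm and mesoderm, including the ventral and posterior mesoderm that feeds the tail. Tolloid proteases cut Chordin, and several Bmp targets act back on the pathway: Sizzled blocks those proteases, and Bambi is a receptor decoy without a kinase. The homeodomain repressors Vox, Vent and Ved keep dorsal organizer genes off on the ventral side.

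The libraries held between 2036973 and 9374914 counts. Levels are given as CPM, counts rescaled to a common library size. In the deepest library 3 counts made up 0.32 CPM, and in the shallowest 1.47 CPM; this limit covers counting error only. On the first principal component of all 6570 tested records, spt_cMO replicate 2 (also the shallowest library) stood apart, with a loading of 0.83 against -0.34 to 0.17 in the other libraries. Markers of somite progenitors, the labelled cell type, were present: all 11 listed had a record and 10 were abundant enough to test. Their summed level was 3010 to 4591 CPM in spt_cMO libraries and 6737 to 8848 CPM in control libraries, with *msgn1* contributing the most. These sums did not overlap. Of the 10 tested, 5 were lower in spt_cMO at an edgeR adjusted p under 0.05 and 0 higher, against 0.974% and 0.807% of all tested records. The 5 were *msgn1*, *tbx16l*, *tcf15*, *ripply2* and *her1*. Among the markers of other cells, the axial mesoderm list summed to 45.1 to 184 CPM in spt_cMO and 42.5 to 163 CPM in control, the enveloping layer list to 231 to 456 CPM and 153 to 335 CPM, and the ventral and non-neural ectoderm list to 1069.5 to 1849 CPM and 1283 to 2119.8 CPM. The sums of these 3 lists overlap between the groups. By group mean the axial sum was mostly *ctslb*, at 64.2 CPM of 105 CPM in spt_cMO and 67.4 CPM of 103 CPM in control. Its part varied between libraries, from 14.0 CPM of 42.5 CPM in control library 5 to 128 CPM of 184 CPM in spt_cMO library 2. The largest part of the ectoderm sum is *gata2a*. It averaged 491 CPM of a mean sum of 1383 CPM in spt_cMO, and 901 CPM of 1647 CPM in control. The median log2 fold change of the 10 tested ectoderm markers, *gata2a* included, was 0.22. Over the lists of other cell types, *shha*, a hedgehog gene of axial mesoderm, and *sox2*, a neural and progenitor SOX gene, rose, at 6.23 and 76.7 CPM in spt_cMO and 1.81 and 43.1 CPM in control (edgeR adjusted p = 0.0195 and 0.00019). *shha* was at 0.415 to 3.27 CPM in control libraries, where 3 counts in library 5 made up 0.407 CPM. It was abundant enough to test through the spt_cMO libraries, at 3.62 to 8.85 CPM, so its call rests on low counts in control. The intermediate mesoderm gene *osr1* fell, at 67.5 CPM in spt_cMO and 92.5 CPM in control (edgeR adjusted p = 0.0394). Each was the only marker called of its list, with 6 axial, 8 neural and 5 lateral and intermediate mesoderm markers tested. The neural list summed to 442 to 596 CPM in spt_cMO and 406 to 594 CPM in control. The lateral and intermediate mesoderm list summed to 124 to 176 CPM in spt_cMO and 136 to 203 CPM in control. Both sums overlap between the groups. The part of such cells in the values of the Bmp genes was not tested. The transcript of *tbx16* itself, whose translation or splicing a morpholino may block without lowering it, averaged 526 CPM in spt_cMO and 386 CPM in control (edgeR adjusted p = 0.0897).

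Across the whole table, 53 of 6570 tested records passed an adjusted p of 0.05 as higher in spt_cMO (0.807%) and 64 as lower (0.974%), with p-values from the quasi-likelihood test of edgeR adjusted by Benjamini-Hochberg over all tested records. When the fit also held the replicate number, as a block, 88 passed as higher (1.34%) and 93 as lower (1.42%). Of the 10 Bmp genes, 8 were abundant enough to test. The ligand gene *bmp2a* rose, none fell and 7 did not pass; with the block, *szl* passed as well. At an unadjusted p under 0.05, 4 were higher and 0 lower (4.6% and 4.84% of all tested records), and DESeq2 called *bmp2a* and *szl* higher and none lower. A positive log2 fold change was found in 6 of the 8, where 50.3% of all tested records had one. The median log2 fold change of the 8 was 0.27, and that of all tested records 0.00104. The 8 passed a filter on abundance, and *chrd* and *vent* did not pass it. The filter asks for enough counts in at least 5 of the 10 libraries, whichever group they belong to.

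**Figure D1:**
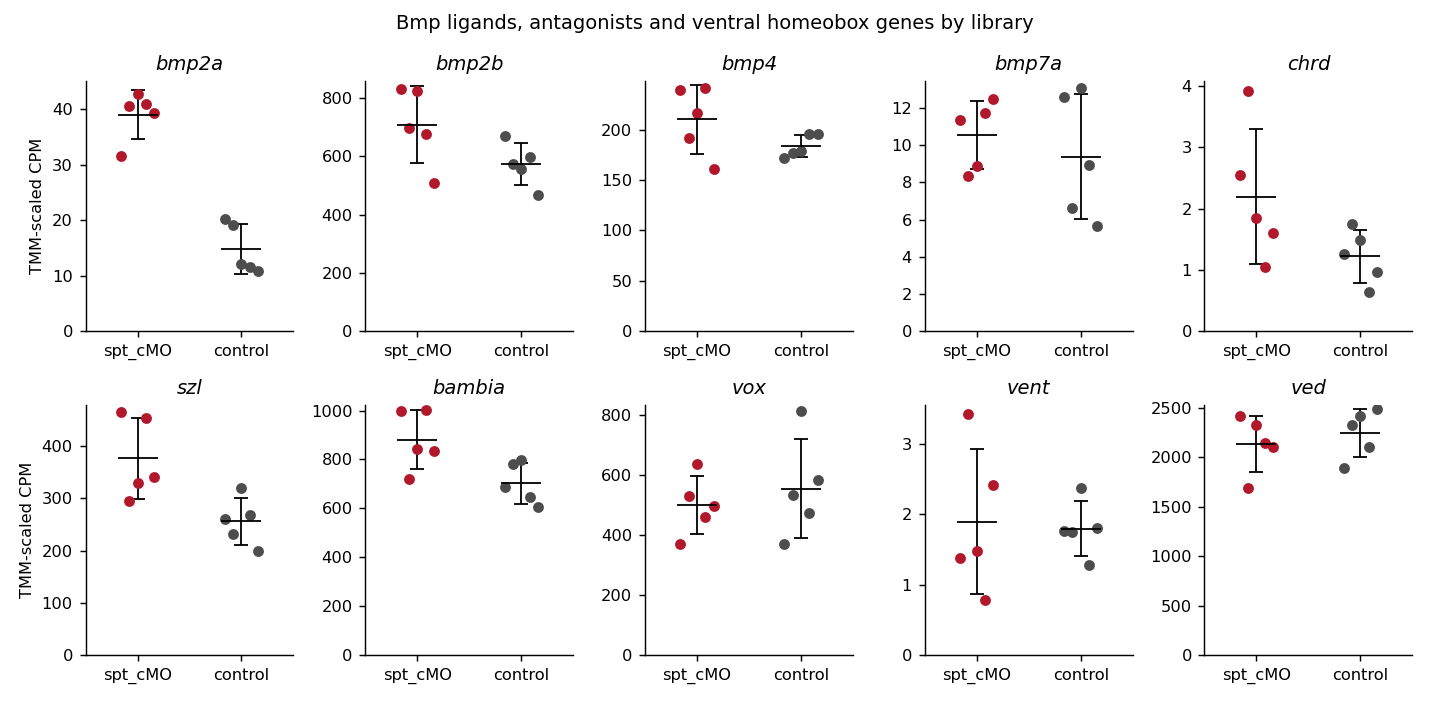
Level of each of the 10 genes in each library, in TMM-scaled CPM (vertical axis, from 0, scaled for each gene), with spt_cMO libraries in red and control libraries in grey. Points are libraries 1 to 5 from left to right, the bar is the mean and the whiskers are ± SD (n = 5); the groups separate without overlap in *bmp2a*, and overlap in the other 9 genes.

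*bmp2a* encodes a Bmp2 ligand, a paralog of the ligand of *bmp2b*. It was counted at 31.5, 40.6, 42.8, 41.0 and 39.4 CPM in spt_cMO libraries 1 to 5, against 20.2, 19.2, 12.2, 11.5 and 10.8 CPM in control libraries 1 to 5. All 5 spt_cMO libraries lay above all 5 control libraries, which was the case for 1.43% of all tested records. The lowest spt_cMO library and the highest control library both carried the number 1. *bmp2a* averaged 39.1 CPM ± 4.39 in spt_cMO and 14.8 CPM ± 4.51 in control (SD, n = 5 each), 2.62-fold higher, with a log2 fold change of 1.39 (SE 0.18, 95% interval 1.01 to 1.76, adjusted p = 0.000128 in edgeR's quasi-likelihood test). The counts behind these levels summed to 751 in spt_cMO and 406 in control. Between same-numbered libraries the difference in log2 CPM was 0.63 and 1.07 for numbers 1 and 2, and between 1.78 and 1.83 for numbers 3 to 5. The call held without each single library, with log2 fold changes of 1.28 to 1.52. In the authors' deposited table the log2 fold change of *bmp2a* was 1.43 (adjusted p = 4.69e-11).

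The records whose profile over the 10 libraries lay closest to that of *bmp2a* were sought by the root mean square difference in centred log2 CPM. The nearest was *ppp1r14c*, a gene for an inhibitor of protein phosphatase 1, at 0.28. It was followed by *s1pr1*, which encodes a receptor for sphingosine-1-phosphate, at 0.29, and by *ncs1b*, which encodes a neuronal calcium sensor protein, at 0.30. The median over all 6569 other tested records was 0.81. All 3 passed the test as higher in spt_cMO, with log2 fold changes of 1.36 for *ppp1r14c*, 1.39 for *s1pr1* and 1.49 for *ncs1b*. Records picked for a profile like that of *bmp2a* carry a like group difference, so these rises follow from the choice.

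*bmp2b* encodes the main ventralizing ligand of the zebrafish gastrula, the one lost in swirl mutants. It was counted at 829, 698, 825, 677 and 508 CPM in spt_cMO libraries 1 to 5, against 668, 573, 556, 598 and 468 CPM in control libraries 1 to 5. In both groups library 5 was the lowest, and 4 of 5 spt_cMO libraries lay above every control library. The mean was 707 CPM ± 132 in spt_cMO and 573 CPM ± 72.6 in control (SD, n = 5 each). The log2 fold change of *bmp2b* was 0.31 (SE 0.13, 95% interval 0.04 to 0.57) and did not pass (edgeR adjusted p = 0.415). All 5 same-numbered pairs were higher in spt_cMO, a pattern that 5.77% of all tested records showed, and the blocked fit did not pass either (adjusted p = 0.113).

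*bmp4* encodes a ligand known for its part in ventral mesoderm and tail. Its level ran from 161 to 241 CPM in spt_cMO libraries (median 217) and from 172 to 196 CPM in control libraries (median 179). The highest 3 and the lowest of all 10 libraries were spt_cMO libraries. The log2 fold change was 0.20 (SE 0.11, 95% interval -0.03 to 0.43; edgeR adjusted p = 0.660). *bmp7a* encodes the ligand that pairs with Bmp2b in the active dimer of the zebrafish gastrula. It was near 10 CPM in both groups, at 10.5 CPM ± 1.84 in spt_cMO and 9.38 CPM ± 3.37 in control (SD, n = 5 each), with counts of 17 to 107 per library. Its log2 fold change was 0.24, with a 95% interval of -0.25 to 0.74, and did not pass (edgeR adjusted p = 0.875). The interval of *bmp2a* lay wholly above those of *bmp2b*, *bmp4* and *bmp7a*. The difference between genes was not tested.

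Among the antagonists, the difference of *szl* was the one whose call depended on the fit. *szl* encodes Sizzled, a secreted Frizzled-related protein that inhibits the Chordin-cutting proteases and is itself switched on by Bmp. It was counted at 466, 295, 329, 453 and 340.3 CPM in spt_cMO libraries 1 to 5, against 261, 232, 319.7, 268 and 199 CPM in control libraries 1 to 5. Control library 3 lay above spt_cMO library 2, and 4 of 5 spt_cMO libraries lay above every control library. The mean was 377 CPM ± 77.6 in spt_cMO and 256 CPM ± 44.9 in control (SD, n = 5 each), 1.48-fold higher. The log2 fold change was 0.56 (SE 0.14, 95% interval 0.26 to 0.87), which did not pass with group alone (edgeR adjusted p = 0.062). In the blocked fit it was 0.55 and passed (edgeR adjusted p = 0.00691). All 5 same-numbered pairs were higher in spt_cMO, as in 5.77% of all tested records. The differences of *szl* ran from 0.04 in log2 CPM for number 3 up to 0.83 for number 1. DESeq2 called it as well (adjusted p = 0.0193), with 1.07% of its tested records called higher. The fit without a filter on low counts, which called 0.577% higher, gave an adjusted p of 0.0341. The authors' deposited table, a likelihood ratio comparison of these same libraries, gave 0.56 (adjusted p = 0.000494). Without single libraries the adjusted p ran from 0.0236 without spt_cMO replicate 2 to 0.174 without spt_cMO replicate 1 in the fit with group alone. When libraries were left out of the blocked fit, which was added after the data were seen, *szl* passed in 6 of 10 fits, with edgeR adjusted p up to 0.0684. Leaving out either library of a number gave nearly the same fit, so these are not 10 separate checks. *szl* passed without a library of number 1, 2 or 3, and not without 1 of number 4 or 5.

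**Figure D2:**
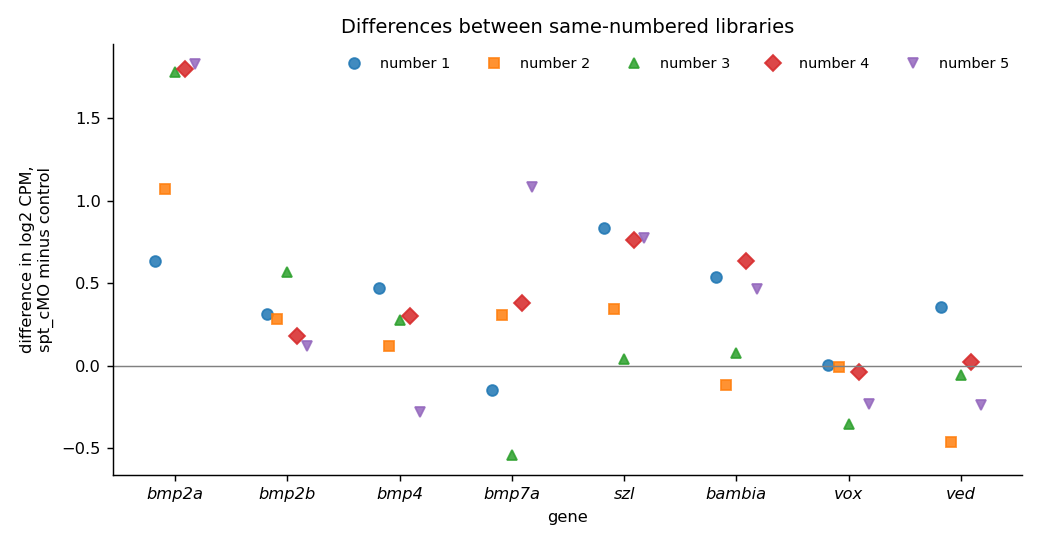
Difference in log2 CPM, spt_cMO minus control, between libraries of the same replicate number (vertical axis) for each of the 8 tested genes, with 1 symbol for each number. All 5 symbols lie above 0 for *bmp2a*, *bmp2b* and *szl*, 4 of 5 for *bmp4* and *bambia*, and 1 of 5 for *vox*.

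*bambia* encodes the receptor decoy Bambi and is a Bmp target. It was counted at 998, 719.8, 842, 1004 and 836 CPM in spt_cMO libraries 1 to 5, against 687, 781, 797, 646 and 605 CPM in control libraries 1 to 5. Only spt_cMO library 2, the library that stood apart, lay within the range of the controls. The log2 fold change of *bambia* was 0.32 (SE 0.11, 95% interval 0.09 to 0.56) and did not pass (edgeR adjusted p = 0.225), and leaving out spt_cMO replicate 2 gave 0.39 (adjusted p = 0.0859). Its paralog *bambib*, picked with its value in view, had a log2 fold change of 0.18 (SE 0.14, adjusted p = 0.795).

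*chrd*, which encodes the Bmp-binding protein Chordin of the dorsal organizer, was hardly detected. Its counts were 24, 8, 5, 4 and 4 in spt_cMO libraries 1 to 5, against 5, 14, 5, 3 and 7 in control libraries 1 to 5. Over the summed counts that is 2.20 CPM in spt_cMO (exact Poisson 95% interval 1.60 to 2.94) and 1.24 CPM in control (0.858 to 1.73). Those intervals cover counting error only, with each read taken as a separate event, and not the spread between libraries. In spt_cMO, library 1, the deepest, held 24 of the 45 counts. All 5 same-numbered pairs were higher in spt_cMO, as in 5.77% of all tested records, which do not include *chrd*. In the fit without a filter on low counts its log2 fold change of 0.78 did not pass (edgeR adjusted p = 0.666). The other dorsal organizer genes were also at a few CPM, with *gsc* at 3.69 CPM ± 2.91 in spt_cMO and 2.72 CPM ± 1.64 in control, and *noto*, a notochord homeobox gene, at 6.27 CPM ± 2.09 in spt_cMO and 4.28 CPM ± 2.36 in control (SD, n = 5 each). Neither passed (edgeR adjusted p = 0.973 and 0.780), and *dharma* had 1 count in spt_cMO library 4 and no count in any other library of either group.

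The ventral homeobox genes showed no difference that passed. *ved* was counted at 1686 to 2419 CPM in spt_cMO libraries (median 2144) and at 1890 to 2490.2 CPM in control libraries (median 2325). The ranges overlapped over most of their length, and spt_cMO library 2 was the lowest of all. Its log2 fold change was -0.07 (SE 0.11, edgeR adjusted p = 0.923), and the 95% interval of -0.30 to 0.16 bounds a change at 0.81-fold below and 1.11-fold above. *vox* was counted at 371 to 636 CPM in spt_cMO libraries (median 496) and at 370.4 to 811 CPM in control libraries (median 532). The lowest library of each group carried the number 1 and the highest the number 3, so same-numbered libraries moved together, and the widest gap between them was -0.35 in log2 CPM. The log2 fold change of *vox* was -0.15 (95% interval -0.57 to 0.26, edgeR adjusted p = 0.907). With the block the interval narrowed to -0.31 to 0.06. The direction of *vox* turned without control replicate 3 (log2 fold change 0.02) and that of *ved* without spt_cMO replicate 2 (0.00221). *vent*, a close relative of *vox*, was counted 3 to 13 times per spt_cMO library and 6 to 14 times per control library. Its summed level was 1.61 CPM in spt_cMO (exact Poisson 95% interval 1.11 to 2.27) and 1.75 CPM in control (1.29 to 2.32), and a difference was not detectable at this depth. A low 3′ tag count does not show that a gene is silent, since the count depends on where the record places the transcript's end.

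**Figure D3:**
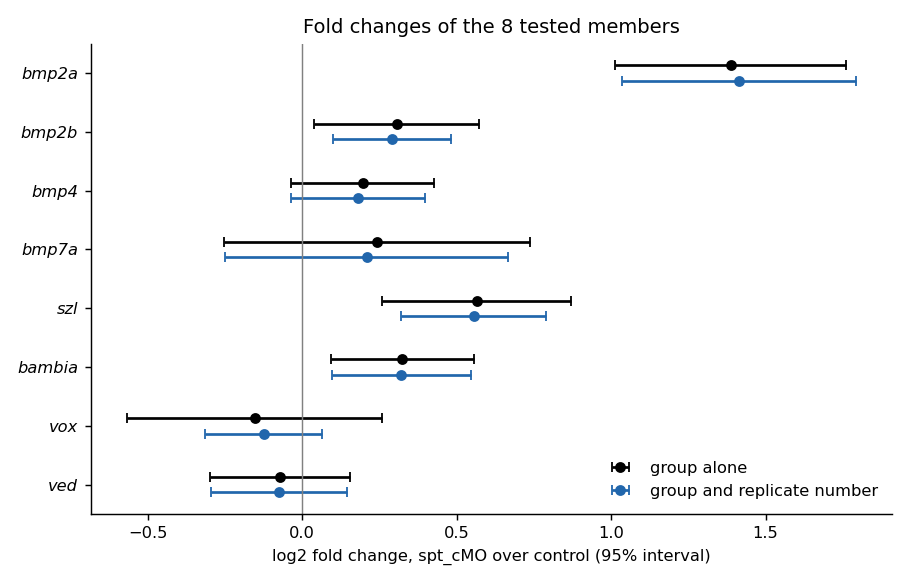
Log2 fold change, spt_cMO over control, of the 8 tested genes with its 95% interval (horizontal axis), in the fit with group alone (black) and in the blocked fit (blue). The interval of *bmp2a* starts above 1, those of *szl*, *bambia* and *bmp2b* lie above 0 before adjustment over all records, and those of *bmp4*, *bmp7a*, *vox* and *ved* include 0.

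Ratios of counts within a library do not depend on how libraries are scaled, and 7 pairs of these genes, chosen with earlier results known, are given as a description without a test. Their absolute size also reflects how well each transcript is tagged, so only the groups are compared. The log2 ratio of *bmp2a* over *bmp2b* was -4.72 to -3.69 in spt_cMO libraries and -5.70 to -4.90 in control libraries. The groups did not overlap, and the means differed by 1.16. The ratio of *bmp2a* over *bmp4* did not overlap either, with means 1.27 apart. *szl* over *ved* was -2.82 to -2.24 in spt_cMO libraries and -3.65 to -2.86 in control libraries, again without overlap. The other 4 ratios, among them *bmp2b* over *bmp4* and *ved* over *vox*, overlapped, and the means of *ved* over *vox* lay 0.05 apart. By its level alone *bmp2a* also separated the groups, while *szl* and *ved* did not. How often ratios of other genes separate the groups was not computed.

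**Figure D4:**
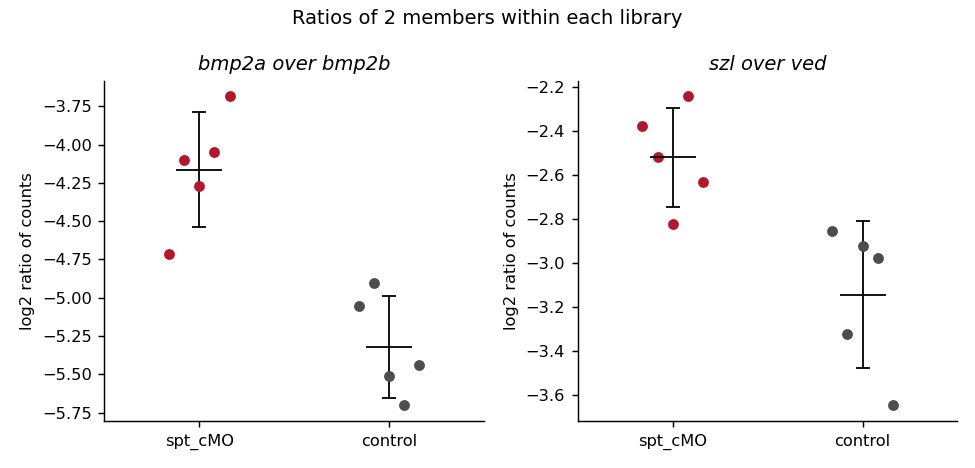
Log2 ratio of the counts of 2 genes in each library (vertical axis), for *bmp2a* over *bmp2b* and *szl* over *ved*, with spt_cMO libraries in red and control libraries in grey, means as bars and SD as whiskers (n = 5). In both ratios every spt_cMO library lies above every control library.

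The rest of the pathway was read from 89 further genes, of which 78 had a record and 47 records were abundant enough to test. By edgeR's quasi-likelihood test with group alone none passed in either direction, against 1.78% of all tested records. With the replicate block 1 was higher and 2 were lower, against 2.75%, and DESeq2 called 1 lower, against 1.11% of its tested records. The authors' deposited likelihood ratio comparison lists 48 records of these genes, of which 7 had an adjusted p under 0.05. Higher were *znf423*, *msx1b*, *msx3* and *tfap2a*, against 1.83% of its 6923 records, and lower were *tob1a*, *fsta* and *gata2a*, against 1.75%. The block without a filter on low counts, added after the data were seen, held 74 records of these genes. It called 3 higher (*msx1b*, *msx3* and *tfap2a*), against 0.976% of all records fitted, and 3 lower (*tob1a*, *fsta* and *gata2a*), against 1.28%. At an unadjusted p under 0.05, 9 of the 47 were higher and 6 lower, where 4.6% of all tested records were higher and 4.84% lower. The 34 records that were not tested stayed at or below 4.40 CPM in every library. They include the type II receptor genes *bmpr2a* and *bmpr2b* and the Smad genes *smad1* and *smad4a*.

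No further ligand or receptor gene passed. *admp*, which encodes a Bmp-like ligand of the dorsal side, was the only other ligand tested, at 10.6 CPM ± 3.23 in spt_cMO and 12.0 CPM ± 2.79 in control (SD, n = 5 each; log2 fold change -0.22, edgeR adjusted p = 0.890). Of 7 tested receptor genes 5 had a positive log2 fold change (50.3% of all tested records had one). The largest was 0.56 (SE 0.25) for the type I receptor gene *bmpr1ba* (edgeR adjusted p = 0.488), followed by low-count *acvr2aa*, a type II receptor gene, at 0.40 and by the type I receptor gene *bmpr1ab* at 0.37. The transducer *smad5* averaged 465 CPM ± 105 in spt_cMO and 422 CPM ± 74.3 in control, and the inhibitory Smads *smad6a*, *smad6b* and *smad7* had log2 fold changes of -0.28, 0.15 and 0.12, none of which passed. *acvr2aa* and these Smad genes were picked with their values in view.

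Some modulators lay close to the threshold. *tob1a* encodes a Tob protein, a family that in mouse restrains Bmp-driven Smad activity. It was counted at 391 to 442 CPM in spt_cMO libraries and at 468 to 584 CPM in control libraries. The groups did not overlap (1.63% of all tested records lay below control in this way). Its log2 fold change was -0.35 (SE 0.09), with an edgeR adjusted p of 0.0526 with group alone, 0.046 with the block and 0.00151 by DESeq2. *fsta*, which encodes follistatin, a binder of activins and Bmps, averaged 1.90 CPM ± 1.23 in spt_cMO and 4.64 CPM ± 1.56 in control (SD, n = 5 each). Its log2 fold change was -1.28 (SE 0.36), with an edgeR adjusted p of 0.0897 with group alone and 0.0486 with the block, and its level in spt_cMO was close to that of 3 counts in the shallower libraries. In the other direction, *tll1*, a Tolloid protease gene, had a log2 fold change of 0.84 (SE 0.28, edgeR adjusted p = 0.208), and *znf423*, whose zinc finger product is a Smad partner in mammals, one of 0.48 (SE 0.14, adjusted p = 0.110).

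Among ventral and Bmp-responsive targets, 12 of 17 tested genes had a positive log2 fold change, and 6 were higher and 3 lower at an unadjusted edgeR p under 0.05. Of all tested records, 50.3% had a positive log2 fold change, and 4.6% were higher and 4.84% lower at that p. The homeobox gene *msx1b* was counted at 232 to 305 CPM in spt_cMO libraries and at 170.1 to 225 CPM in control libraries. The groups did not overlap (1.43% of all tested records lay above control in this way). The log2 fold change of *msx1b* was 0.36 (SE 0.10), with an edgeR adjusted p of 0.116 with group alone and 0.0377 with the block. Its relative *msx3* had a log2 fold change of 0.66 (SE 0.22, edgeR adjusted p = 0.208). The ectodermal AP-2 factor genes *tfap2a* and *tfap2c* had 0.34 and 0.30, and the posterior homeobox gene *eve1* 0.34 on the same scale. These 3 did not pass with group alone (edgeR adjusted p = 0.243, 0.282 and 0.225) or with the block, and were picked with their values in view. In the block without a filter *msx3* and *tfap2a* passed (edgeR adjusted p = 0.0166 and 0.0331). Whether that fit, added after the data were seen, understates the spread was not tested. The ventral and non-neural ectoderm marker list shares 7 genes with these targets. Its 3 markers outside the target list, *krt4*, *krt5* and *cdh1*, summed to 82.3 to 151 CPM in spt_cMO and 74.7 to 149 CPM in control, and their part in these values was not tested.

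Not all targets pointed the same way. The Id genes encode helix-loop-helix proteins without a DNA-binding domain and are direct Bmp targets. *id1* averaged 2005 CPM ± 361 in spt_cMO and 1789 CPM ± 734 in control (SD, n = 5 each), and its log2 fold change of 0.17 (SE 0.24) was smaller than its error. *id3* averaged 891 CPM ± 90.2 in spt_cMO and 1070.2 CPM ± 135 in control. It was lower in all 5 same-numbered pairs, as were 6.04% of all tested records, with a log2 fold change of -0.26 (edgeR adjusted p = 0.357). *id2a* was lower without overlap, as were 1.63% of all tested records. It averaged 66.9 CPM ± 2.82 in spt_cMO and 80.8 CPM ± 1.20 in control (log2 fold change -0.27, edgeR adjusted p = 0.226). The GATA factor gene *gata2a*, of ventral ectoderm and blood, had the widest gap of the targets. It was counted at 333, 432, 876, 535 and 279.5 CPM in spt_cMO libraries 1 to 5, against 714, 1143, 1348, 563 and 737 CPM in control libraries 1 to 5. Each spt_cMO library lay below its same-numbered control, as in 6.04% of all tested records, and library 3 was the highest in both groups. The log2 fold change of *gata2a* was -0.88 (SE 0.36), with an edgeR adjusted p of 0.481 with group alone, 0.0944 with the block and 1.8e-10 with the block and no filter on low counts, while the authors' deposited table gave -0.92 and an adjusted p of 5.36e-06. The SE of *gata2a* was 0.21 with the block and 0.11 with the block and no filter. Its adjusted p of 1.8e-10 in edgeR rests on that smaller SE, and with the SE of 0.21 *gata2a* did not pass. The same-numbered pairs were uneven. Number 4 had 535 CPM in spt_cMO and 563 CPM in control, and number 5 had 279.5 CPM and 737 CPM. Whether the SE of 0.11 understates this spread was not tested, so no conclusion is drawn from that adjusted p. The Id genes and *gata2a* were picked with their values in view as well.

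**Figure D5:**
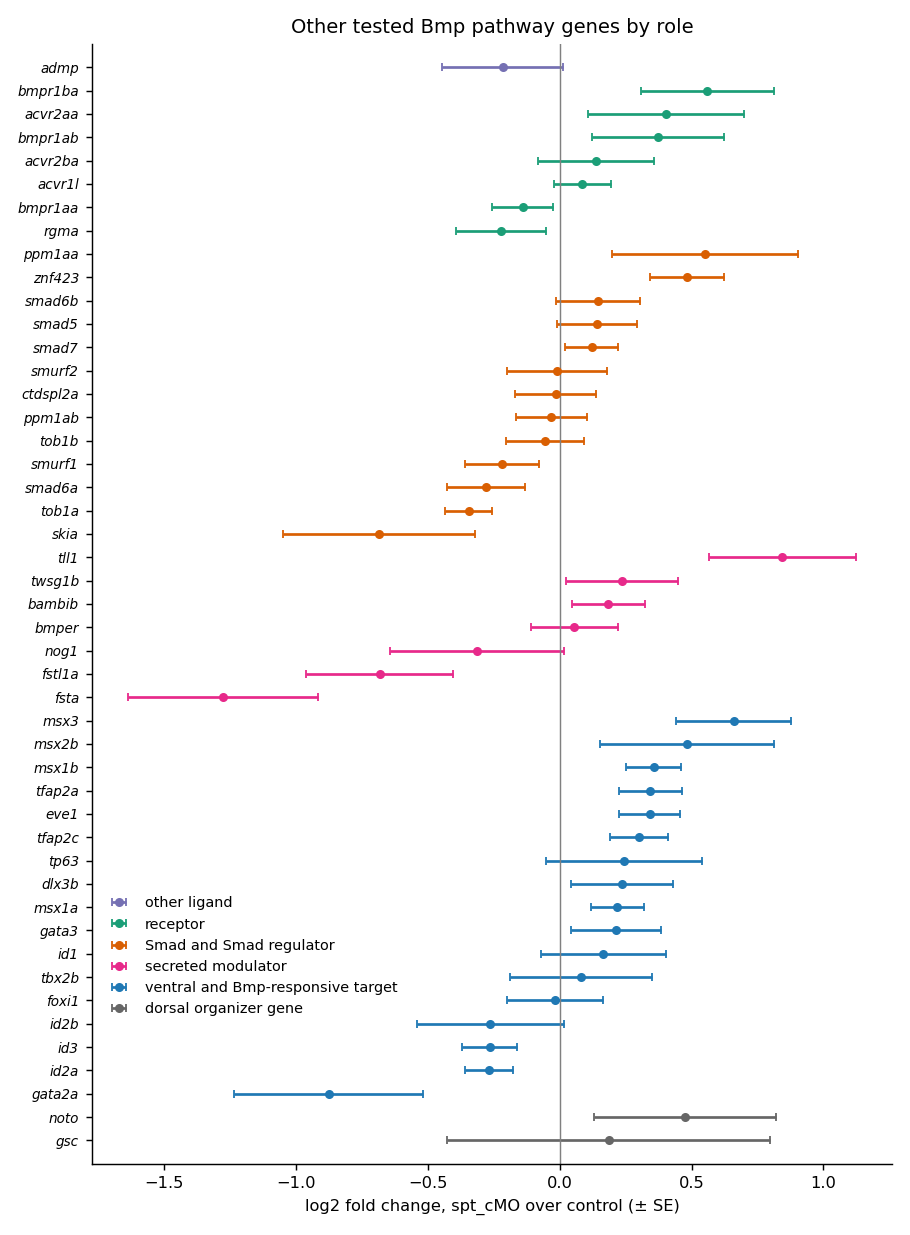
Log2 fold change, spt_cMO over control, with its SE (horizontal axis) for the 47 other tested pathway records, coloured by role and ordered within each role. None passed the test with group alone; *tll1* has the highest value at 0.84 and *fsta* the lowest at -1.28.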

How the data were processed

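CEL-seq libraries of 5 spt_cMO and 5 control samples were compared. The authors deposited raw counts per RefSeq record, aligned in Galaxy by custom scripts for CEL-seq, with Zv8 as the assembly, per the series' design text; the aligner, the counter and its use of strand are not given in the sources used here. No molecular identifiers are mentioned in the labels, and counts were taken as reads. The authors' deposited edgeR comparison lists 6923 records and gives their log2 fold change and mean log2 CPM, the likelihood ratio (a score), and p-values raw and adjusted; edgeR is named in the submitters' processing notes, with no version.

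Symbols came from a RefSeq table of GRCz12tu, used for names only, in which 13986 of 14720 records matched. Records without a symbol (1.4% to 1.62% of counts) stayed in the tests. Counts were analysed with edgeR 4.0.16 in R 4.3.3: filterByExpr (minimum count 10, minimum total 15, minimum proportion 0.7), TMM scaling, robust glmQLFit and glmQLFTest, 2-sided, Benjamini-Hochberg adjusted over all 6570 tested records at 0.05. CPM are TMM-scaled, and log2 CPM used a prior count of 2. SEs come from the F statistic and 95% intervals from the fit's t quantile. The test was checked on simulated counts.

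Alternatives were other scalings and filters, DESeq2 1.42.0, the replicate number as a block, and leaving out each library. The labels do not say what a replicate number shares. After subtracting group means, libraries of the same number correlated at 0.135, 0.251, 0.119, 0.203 and 0.147 over 6570 records, each above 0.1, so the numbers were taken to pair the libraries. Correlations between libraries of different numbers were not computed. After the subtraction, a library's covariances (unscaled correlations) with all libraries of the other group cancel out, so those with different numbers are negative on average. Whether unpaired numbers would give values this high was not tested, so the pairing remains an assumption. The calls of the blocked fits rest on this assumption. Whether the authors' deposited comparison also held the replicate number was not tested. Its log2 fold change of *noto* was 0.632, against 0.630 with the block and 0.475 with group alone. That of *bambia* was 0.327, against 0.322 with the block and 0.325 with group alone. Nothing says that libraries came from separate clutches beyond their being called biological replicates.

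The genes and lists were chosen with earlier results of these data known. Named were all 10 genes, every pathway gene called, and up to 2 uncalled genes per role with the smallest unadjusted p. The 3 records nearest in profile to a called gene were named too. Other tested pathway genes are marked in the text as picked with their values in view. The untested genes *dharma*, *bmpr2a*, *bmpr2b*, *smad1* and *smad4a* and the marker genes were named outside this rule. No coordinates or sequences are given.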

Additional observations from a re-analysis of the deposited data

Results flagged for a closer look

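In 2 of 42 sets of 5 libraries checked (10 Bmp genes and 11 named pathway genes in both groups), 1 library stood far from the other 4; chance gives about 1 in 20. For *msx1b* in spt_cMO the gap made up 0.747 of the range: library 3 had 305 CPM and the other 4 had 232 to 251 CPM. For *tll1* in control it made up 0.829: library 1 had 6.80 CPM and the other 4 had 3.25 to 3.86 CPM.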

How the results depend on the processing

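The rise of *bmp2a* passed under all 27 alternatives, with log2 fold changes of 1.28 to 1.63. *bmp2b*, *bmp4*, *bmp7a* and *bambia* kept a positive log2 fold change and did not pass under any of their 17 alternatives. *szl* kept its direction under all 27 and passed under 12. It passed with the replicate block (0.55), the block and no filter (0.53), DESeq2 (0.56) and no filter (0.55). Without single libraries *szl* ranged from 0.48 to 0.66, and with the block as well from 0.48 to 0.68 (0.61 without control replicate 2, 0.61 without spt_cMO replicate 2). Under the block, leaving out a library also removes the information of its partner. The 10 blocked fits without single libraries are thus not separate alternatives among the 27 of *bmp2a* and *szl*. *vox* ranged from -0.27 to 0.024 without single libraries, the last without control replicate 3, and *ved* from -0.13 to 0.00221, the last without spt_cMO replicate 2. *gsc* ranged from -0.19 to 0.58 and turned negative without control replicate 4 or 5 and without spt_cMO replicate 2 or 5.

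Records called higher numbered 53, against 88 with the replicate block and 83 by DESeq2, and 36 to 56 without single libraries. Pathway genes called higher numbered 0, against 1 with the block and 0 to 1 without single libraries; those called lower numbered 0, against 2 with the block, 1 by DESeq2, 1 without a filter and 0 to 2 without single libraries. The block changed no other call among the 10 genes. The blocked fits without single libraries, and the block without a filter, were chosen after seeing the data. Whether the block without a filter understates the spread was not tested. *chrd* and *vent* had too few counts for the filtered fits and are given from the fit without a filter. The causes were not tested.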
